A study of Mus musculus with 6 samples.

Results

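The p53 pathway and the apoptosis machinery it acts through were followed here as a list of 33 genes, taken by symbol and matched by Ensembl identifier among the 49671 genes of the count files. The list holds 3 regulators (Trp53, which encodes p53, and its inhibitors Mdm2 and Mdm4), 18 genes known as p53 targets, and 12 genes of the BCL2 family and the caspases. All 33 passed the filter on low counts that left 15355 genes for testing. The members were listed by function and not by a measured value, although results of these data were already known when the list was made.

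The 6 libraries came from mouse induced renal epithelial cells (iRECs), fibroblasts reprogrammed into cells that resemble kidney tubule epithelium, of the strain B6.129S4-Pkd1tm2Ggg/J. Pkd1, whose allele is floxed in this strain, encodes the membrane protein polycystin-1, and its loss underlies most cases of autosomal dominant polycystic kidney disease. Cultures of clones 4, 7 and 21 transduced with Cre recombinase (labelled Pkd1 knockout, Pkd1 -/-) were set against cultures of the same clones transduced with Flp recombinase (labelled Pkd1 wild type, Pkd1 fl/fl). All cultures were grown in serum-containing medium to confluency, without a DNA-damaging agent named in the labels, and total RNA was sequenced. Each clone is a single cell line, whose animal of origin the labels leave unnamed. P-values for Cre against Flp therefore cover only the spread between these 3 clone pairs.

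The transcription factor p53 is kept low in unstressed cells by MDM2, a ubiquitin ligase that sends it to degradation, and by MDM4, which masks its activation domain. DNA damage and other stresses release p53, which then switches on genes that halt the cell cycle (Cdkn1a), limit growth signalling and oxidative stress (the sestrins), support DNA repair (Rrm2b) or push the cell to apoptosis (Bax, Bbc3, Pmaip1). Because Mdm2 is itself a p53 target, the pathway restrains its own activity. p53 is controlled mainly as a protein, which these RNA measurements do not show.

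p53 binds a DNA element made of a pair of adjacent 10-base motifs, which many targets carry near their start or in an early intron. RefSeq promoters (250 bases before to 50 bases after the start, GRCm38) were matched for 28 of the 33 members and searched for the p53 response element, whose motif reads alike on both strands. A single motif with no mismatch was found for 9 of the 28 members (32.1%), against 9.55% of 27025 genes with a promoter of this length. A pair of motifs with at most 2 mismatches and a spacer of at most 1 base was found for 3 members (10.7%), against 0.807% of genes. Pairs include some of the single motifs. A match describes the letters of a window and is neither a measured binding site nor a cause of any level below. The 3 pairs are shown because they lie before Cdkn1a, Ccng1 and Bax, the cell-cycle and death effectors whose values follow, and single motifs are shown for the regulators Trp53 and Mdm2 and for Sesn1. Capitals mark the match, and each sequence reads 5′ to 3′ on the strand of its gene.
Cdkn1a, pair with 1 mismatch, chr17:29090908-29090967, plus strand, 51 to 32 bases upstream of the start: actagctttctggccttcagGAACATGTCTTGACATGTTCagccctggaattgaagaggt
Ccng1, pair with 1 mismatch, chr11:40755442-40755501, minus strand, 195 to 176 bases upstream: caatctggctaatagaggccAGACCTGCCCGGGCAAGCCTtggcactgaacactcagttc
Bax, pair with 2 mismatches and a spacer of 1 base, chr7:45467059-45467119, minus strand, 201 to 181 bases upstream: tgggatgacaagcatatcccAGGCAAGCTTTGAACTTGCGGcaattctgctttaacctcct
Mdm2, single motif, chr10:117710915-117710964, minus strand, 186 to 177 bases upstream: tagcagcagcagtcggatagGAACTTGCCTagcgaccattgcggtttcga
Trp53, single motif, chr11:69580264-69580313, plus strand, 75 to 66 bases upstream: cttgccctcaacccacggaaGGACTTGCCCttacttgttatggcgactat
Sesn1, single motif, chr10:41887246-41887295, plus strand, 173 to 164 bases upstream: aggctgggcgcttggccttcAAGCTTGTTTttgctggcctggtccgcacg
None of the windows shown overlaps an annotated exon. The Sesn1 window lies inside the annotated gene (chr10:41809935-41908424), upstream of a RefSeq start within it. The other members with a single motif were Aen, Ei24 and Gadd45a, where the window did overlap one.

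Levels are given in CPM, read counts relative to the TMM-scaled size of the library, and a Cre over Flp ratio is on the log2 scale. Total gene counts ran from 25196120 to 46918341 per library, and a count of 0 allows at most 0.0632 to 0.121 CPM, for counting error only. The Cre library was 1.65 and 1.75 times as deep as its Flp partner in clones 4 and 21 and 0.731 times as deep in clone 7. Pkd1, the targeted gene, was at 145, 105 and 118 CPM in the Cre libraries of clones 4, 7 and 21 and at 199, 229 and 166 CPM in the Flp libraries, so every Cre library lay below every Flp library. edgeR's quasi-likelihood test put this difference at -0.69 on the log2 scale (SE 0.16), with an adjusted p of 0.6065. In bulk libraries, fewer cells with a transcript and less transcript per cell cannot be told apart. A count over the whole gene also does not show whether its reads come from recombined or intact alleles. All 12 kidney epithelial markers reached a mean of 1 CPM, with summed levels of 9074 to 10625 CPM in Cre and 9738 to 11188 CPM in Flp. Of the fibroblast markers, 4 of 10 reached 1 CPM, with sums of 158 to 308 CPM in Cre and 238 to 338 CPM in Flp. Vim made up most of these sums. In the authors' deposited table its mean normalized count was 7606, against 684 for Twist1, 233 for Pdgfrb and 191 for Col1a1. Thy1 was at 0 in every library. Endothelial markers summed to 0.240 to 0.875 CPM in Cre and 0.242 to 1.84 CPM in Flp, with Cdh5 and Emcn at 0. Of the haematopoietic markers, 1 of 6 reached 1 CPM, with sums of 4.42 to 6.70 CPM in Cre and 6.24 to 6.70 CPM in Flp. The cell cycle genes are given further on, beside the members' ratios.

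The p53 network was transcribed at readily measured levels in all cultures. Of the 33 members, 31 were at 10 CPM or more in every library and 32 at 1 CPM or more. Per kilobase of merged exons, Ccng1, which encodes cyclin G1, was the highest, at a mean level of 103 CPM per kb (74.7 to 135 over the libraries). Ddit4, an inhibitor of mTORC1 signalling, followed with 68.4 to 155 CPM per kb, and the ranges of these genes overlapped. Mcl1, at 95.5, Pmaip1, at 89.2, and Perp and Cdkn1a, each at 86.2 CPM per kb, came next. At the other end were Rrm2b, at a mean of 2.23 CPM per kb (1.87 to 2.66), and the death receptor gene Fas, at 0.575 CPM per kb (0.255 to 0.971). Fas and Rrm2b did not overlap, while Rrm2b overlapped Sesn1, at 1.89 to 3.01 CPM per kb. Among the executioners and their brakes, the pro-survival gene Bcl2 lay at 2.73 CPM per kb (1.27 to 3.77), against 51.7 (43.3 to 59.6) for Bcl2l1, which encodes BCL-XL, and 85.3 to 113 for Mcl1.

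**Figure D1:**
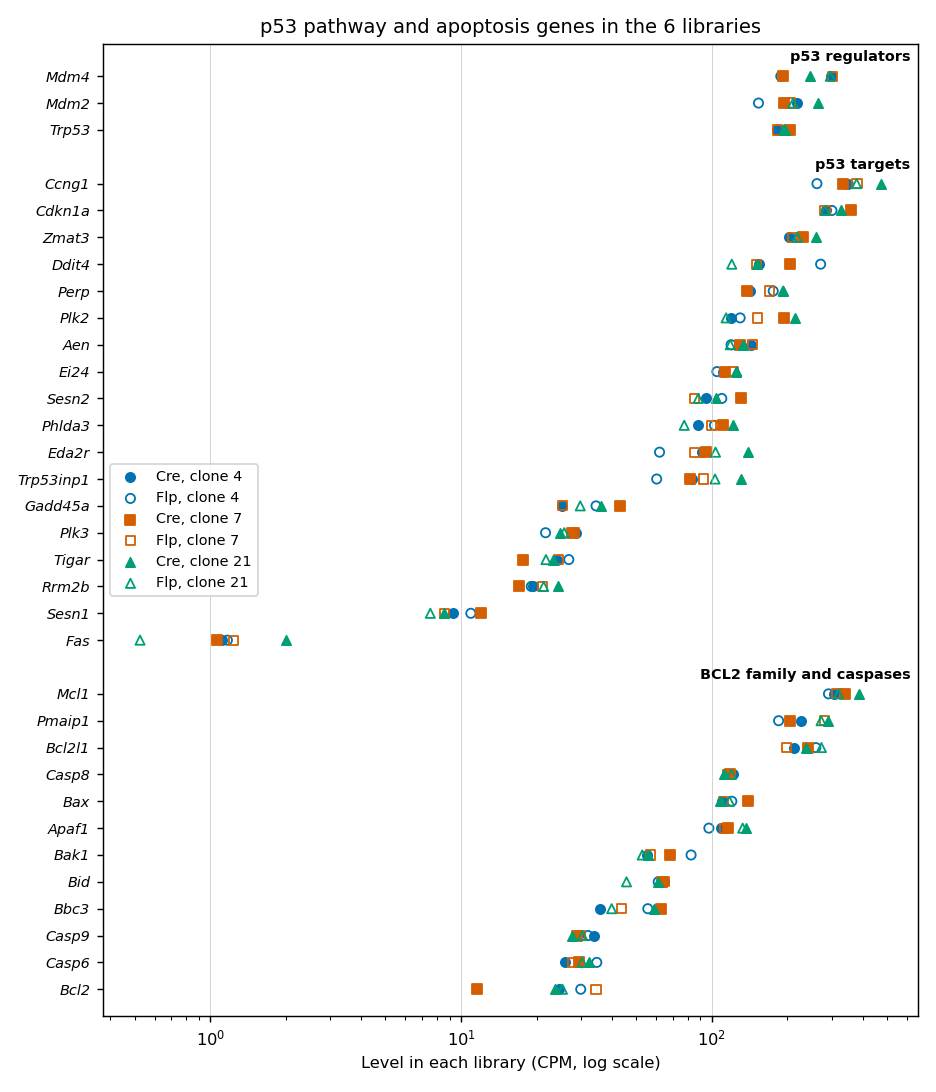
Level of each of the 33 genes in the 6 libraries, in CPM on a log axis, with filled symbols for Cre and open symbols for Flp and a colour and shape for each clone. Fas is the gene below 10 CPM with the widest spread, from 0.525 to 2.001 CPM, and Bcl2 is the gene whose 3 Cre values all lie below its 3 Flp values.

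The first comparison asked whether these genes differed between the Cre cultures, labelled Pkd1 knockout, and the floxed Flp cultures. No member passed an adjusted p of 0.05 in edgeR's quasi-likelihood test with clone as a block, and neither did any of the 15355 genes tested (0.0% called). At an unadjusted p under 0.05, edgeR counted 1 member of 33 (3.03%), Eda2r, against 1047 genes (6.82%). DESeq2 with the same block called 0 members, beside 195 of 13271 genes (1.47%), with 2 members (6.06%) at an unadjusted p under 0.05, against 7.37% of all genes. edgeR without the filter on low counts called 0 members, beside 224 of 28286 genes (0.792%), with 3 members (9.09%) at an unadjusted p under 0.05, against 5.85% of all genes. The authors' deposited table also called 0 members, beside 178 of 12973 genes (1.37%), and its smallest adjusted p for a member was 0.409, for Eda2r. Fitted fold changes were positive for 20 members (60.6%), against 50.7% of all genes, and their median was 0.08, against 0.00 for all genes. For 31 members the 95% interval of the fold change, not adjusted for the number of genes, lay within 1 log2 unit of 0. The other 2 were Fas and Bcl2, whose intervals reached from -0.84 to 1.84 and from -1.40 to 0.12.

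Among the regulators, Trp53 (ENSMUSG00000059552, chr11:69580359-69591873, GRCm38) was at 182, 205 and 195 CPM in the Cre libraries of clones 4, 7 and 21 and at 197, 182 and 194 CPM in the Flp libraries. The groups overlapped, and all 6 libraries stayed within a narrow band. Cre averaged 194 ± 11.5 CPM and Flp 191 ± 7.81 CPM (SD, n = 3), and the fitted fold change was 0.02 (SE 0.11, 95% interval -0.24 to 0.28). edgeR gave it an adjusted p of 0.9901.

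Mdm2 (chr10:117688875-117710758), the ubiquitin ligase that p53 itself induces, was at 219, 195 and 264 CPM in Cre and at 153, 206 and 211 CPM in Flp of clones 4, 7 and 21. Cre was the higher culture of clones 4 and 21 and slightly the lower one of clone 7, and the groups overlapped. For Mdm2 the fit gave a fold change of 0.25 (SE 0.14, interval -0.10 to 0.60) with an adjusted p of 0.8408 in edgeR.

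Mdm4 (chr1:132959484-133030561), the partner of MDM2 that blocks p53's activation domain, was at 298, 192 and 247 CPM in Cre and at 188, 303 and 296 CPM in Flp. The high and low cultures changed places between clones: Cre was higher in clone 4 and lower in clones 7 and 21, with ratios of 0.66, -0.66 and -0.26. The fitted fold change was accordingly -0.09 (SE 0.25, interval -0.71 to 0.54) with an adjusted p of 0.9841 in edgeR.

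The 18 p53 targets included 13 with a positive and 5 with a negative fold change, with a median of 0.15 against 0.00 over all genes, and 1 at an unadjusted p under 0.05 in edgeR. Their median was 0.24 without clone 4 and 0.08 without clone 7 or clone 21. Eda2r (ENSMUSG00000034457, chrX:97333840-97377216), which encodes a TNF receptor family member that binds ectodysplasin A2, was at 91.0, 94.9 and 139 CPM in Cre and at 61.9, 85.6 and 103 CPM in Flp. The Cre culture was the higher in each clone, but the groups overlapped because Flp clone 21 exceeded Cre clones 4 and 7. Cre averaged 108 ± 26.6 CPM and Flp 83.6 ± 20.8 CPM (SD, n = 3). The fold change was 0.38 (SE 0.12, interval 0.08 to 0.67), with an unadjusted p of 0.0212 and an adjusted p of 0.6455 in edgeR. Its adjusted p ran from 0.3503 to 1.0 over the alternative fits.

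Plk2 (chr13:110395046-110400844), a polo-like kinase, was at 119, 194 and 215 CPM in Cre and at 130, 152 and 114 CPM in Flp. Cre clones 7 and 21 lay above every Flp library, while Cre clone 4 lay below its own Flp culture. Plk2 had a fold change of 0.38 (SE 0.20, interval -0.12 to 0.88) with an adjusted p of 0.8301 in edgeR. Perp (chr10:18845020-18857073), which encodes a tetraspan protein of desmosomes, was at 141, 138 and 193 CPM in Cre and at 176, 170 and 193 CPM in Flp. Cre was the lower culture in clones 4 and 7, and in clone 21 the values were equal as printed. Perp had a fold change of -0.20 (SE 0.11, interval -0.48 to 0.07) with an adjusted p of 0.8345 in edgeR.

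Cdkn1a (chr17:29090976-29100727), the cyclin-dependent kinase inhibitor p21 and here the gene with a pair of motifs nearest to its start, was at 284, 359 and 328 CPM in Cre and at 301, 283 and 283 CPM in Flp. Cre clone 4 lay among the Flp values and the other Cre libraries above them. The means were 324 ± 37.8 and 289 ± 10.5 CPM (SD, n = 3), and the fold change was 0.16 (SE 0.12) with an adjusted p of 0.9005 in edgeR. Cdkn1a, Bax, Bbc3 and Gadd45a were picked for full values after these had been seen, for their place in the pathway.

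Ccng1 (chr11:40748552-40755311) was at 350, 332 and 474 CPM in Cre and at 262, 379 and 378 CPM in Flp. Cre clone 21 was the highest and Flp clone 4 the lowest library. Ccng1 had a fold change of 0.18 (SE 0.15) with an adjusted p of 0.9044 in edgeR. Gadd45a, a stress sensor that acts on growth arrest, was at 25.2, 43.0 and 36.3 CPM in Cre and at 34.5, 25.4 and 29.9 CPM in Flp, so that the lowest and the highest library were both Cre cultures. For Gadd45a the fold change was 0.20 (SE 0.24). Of its exon bases, 19.1% were shared with a transcript on the opposite strand, and reads of overlapping genes cannot be assigned without the strand setting.

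Ddit4 (chr10:59949669-59951834) was at 154, 206 and 152 CPM in Cre and at 271, 151 and 120 CPM in Flp. Flp clone 4 stood above the other 5 libraries. The clone ratios were -0.82, 0.45 and 0.34, and the fold change was -0.01 (SE 0.26, interval -0.65 to 0.64) with an adjusted p of 0.9983 in edgeR.

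Trp53inp1 (chr4:11156431-11174379), which encodes a stress-induced regulator of p53 and autophagy, was at 83.7, 81.6 and 131 CPM in Cre and at 60.3, 92.8 and 103 CPM in Flp. Both cultures of clone 21 were above all others, whatever the recombinase. For Trp53inp1 the fold change was 0.21 (SE 0.15) with an adjusted p of 0.8882 in edgeR. Rrm2b (chr15:37923952-37961318), the p53-induced subunit of ribonucleotide reductase, was at 19.3, 17.1 and 24.3 CPM in Cre and at 19.1, 21.1 and 21.4 CPM in Flp. These groups overlapped throughout, with a fold change of -0.03 (SE 0.17) and an adjusted p of 0.9901 in edgeR.

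Fas (chr19:34290666-34327772), the death receptor, was low in every culture. It was at 1.11, 1.06 and 2.001 CPM in Cre and at 1.17, 1.24 and 0.525 CPM in Flp, from 47, 31 and 95 reads and from 29, 50 and 14 reads. Clone 21 alone held both the highest and the lowest value. The fold change was 0.50 (SE 0.54) with an adjusted p of 0.9436 in edgeR, and it was -0.15 without clone 21.

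The 8 targets not yet described had fold changes between -0.17 and 0.21. Sesn2, a sestrin that restrains mTORC1, was at 0.21 (SE 0.17), and its relative Sesn1 at 0.14 (SE 0.23). Phlda3, an inhibitor of AKT, was at 0.20 (SE 0.18). Plk3, another polo-like kinase, was at 0.10 (SE 0.16), the nuclease gene Aen at 0.09 (SE 0.12) and Zmat3, an RNA-binding regulator of splicing, at 0.08 (SE 0.12). Ei24, which encodes a protein of the endoplasmic reticulum, was at -0.01 (SE 0.10), and Tigar, a fructose bisphosphatase that slows glycolysis, at -0.17 (SE 0.17).

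The 12 genes of the BCL2 family and the caspases had 5 positive and 7 negative fold changes with a median of -0.02, or 0.07 without clone 4, and 0 of them had an unadjusted p under 0.05 in edgeR. DESeq2 gave 1 of them, Bcl2, an unadjusted p of 0.0372 with an adjusted p of 0.527, where the alternative fits gave 0.414 to 1.0. Bcl2 (ENSMUSG00000057329, chr1:106538178-106714274), the founding pro-survival member, was at 24.6, 11.6 and 23.7 CPM in Cre and at 30.0, 34.5 and 25.4 CPM in Flp. The groups did not overlap, but by a margin of only 24.6 against 25.4 CPM. No other member had separate groups, so that the share was 3.03%, against 8.13% of all genes in either direction and 3.95% with Cre below Flp. Bcl2 averaged 19.98 ± 7.25 CPM in the Cre and 30.0 ± 4.57 CPM in the Flp libraries (SD, n = 3). The fold change was -0.64 (SE 0.31, interval -1.40 to 0.12), with an unadjusted p of 0.0853 and an adjusted p of 0.786 in edgeR. Clone 7 carried most of it, with a ratio of -1.56 against -0.29 and -0.10 in clones 4 and 21, and without clone 7 the fold change was -0.19. The 8 expressed genes within 5 Mb of Bcl2 had median ratios of 0.04, 0.36 and 0.16 in clones 4, 7 and 21, so its neighbours did not share its low value in Cre clone 7.

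The other pro-survival genes lay closer to 0. Mcl1 (chr3:95658788-95663176) was at 306, 338 and 387 CPM in Cre and at 292, 315 and 320 CPM in Flp. Cre was slightly the higher culture in each clone, yet the groups overlapped. Mcl1 had a fold change of 0.15 (SE 0.10, interval -0.11 to 0.41) with an adjusted p of 0.8865 in edgeR. Bcl2l1 had a fold change of -0.07 (SE 0.14) and ratios of -0.29, 0.28 and -0.20. In clone 21 the 92 expressed genes within 5 Mb of Bcl2l1 had a median ratio of -0.55, and the part of this in its own ratio was not tested.

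Of the effectors that open the mitochondrial outer membrane, Bax (chr7:45461697-45466898) was at 110, 139 and 108 CPM in Cre and at 120, 112 and 118 CPM in Flp. Cre clone 7 was the highest library, and the remaining 5 were close together. Bax had a fold change of 0.02 (SE 0.13, interval -0.30 to 0.34) with an adjusted p of 0.9901 in edgeR. Of its exon bases, 12.18% were shared with Gm45808 on the same strand, where strand cannot tell the reads of these genes apart. Bak1, the other effector, was at -0.08 (SE 0.18), with 25.5% of its exon bases shared with an opposite-strand gene. Of the BH3-only genes, Bbc3, which encodes PUMA, was at 35.9, 62.8 and 58.7 CPM in Cre and at 55.5, 43.7 and 39.9 CPM in Flp. Its Cre culture was the lower in clone 4 and the higher in clones 7 and 21, giving ratios of -0.63, 0.52 and 0.56. The fold change was 0.16 (SE 0.26, interval -0.48 to 0.79) with an adjusted p of 0.9644 in edgeR. Pmaip1, which encodes NOXA, had a fold change of -0.02 (SE 0.16).

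Bid (chr6:120891930-120916853), which links death receptors to mitochondria, was at 64.5, 63.3 and 60.9 CPM in Cre and at 61.1, 64.8 and 45.7 CPM in Flp. Flp clone 21 was the low library, and the other 5 overlapped. The fold change was 0.15 (SE 0.13) with an adjusted p of 0.9122 in edgeR, and 17.7% of its exon bases were shared with Bcl2l13 on the opposite strand. Apaf1 (chr10:90989311-91082770), the scaffold of the apoptosome, was at 108, 116 and 137 CPM in Cre and at 97.3, 112 and 133 CPM in Flp. Each Cre value exceeded its Flp partner, by 0.15, 0.05 and 0.05 on the log2 scale. The gap between the highest and the lowest clone, with the cultures of a clone averaged, was larger, at 0.39. Apaf1 had a fold change of 0.08 (SE 0.10, interval -0.16 to 0.32) with an adjusted p of 0.9481 in edgeR. The caspases differed little: the initiators Casp8 and Casp9 were at -0.02 (SE 0.10) and -0.03 (SE 0.13), and the executioner Casp6 at -0.08 (SE 0.16).

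**Figure D2:**
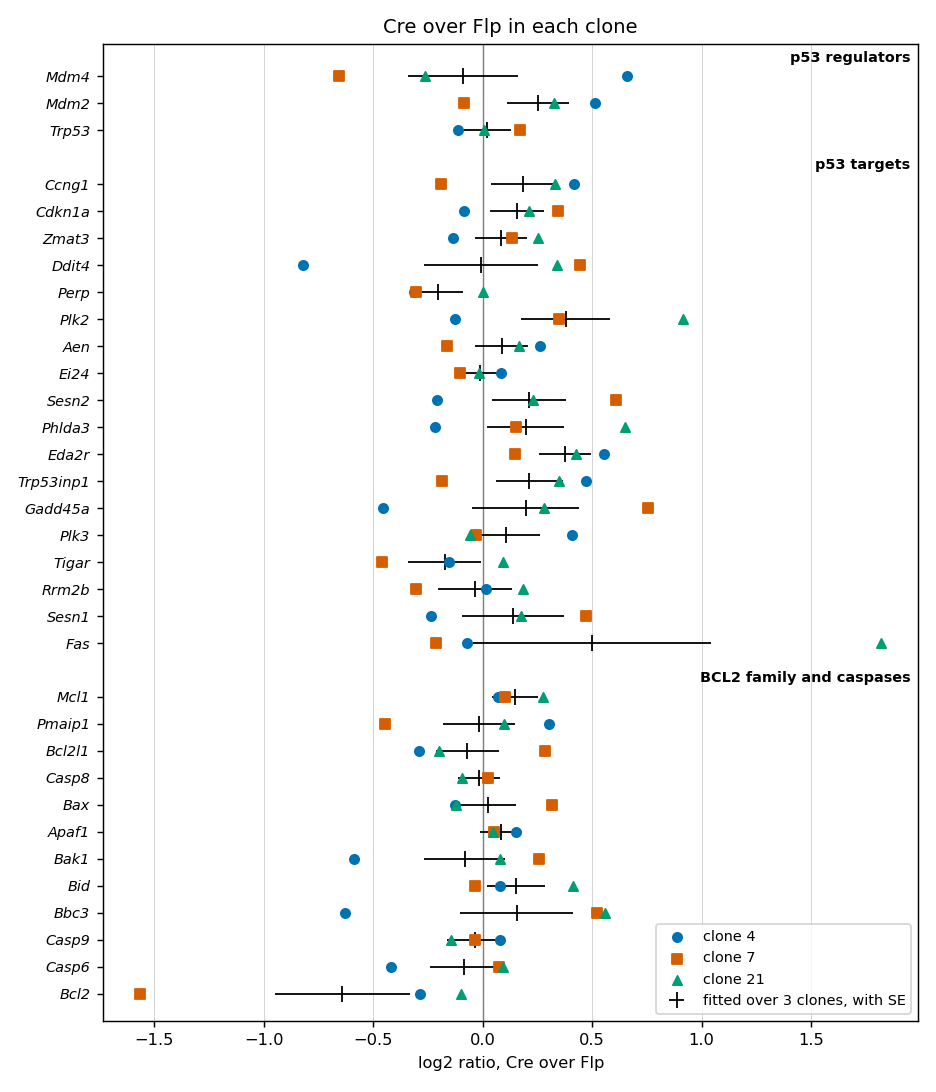
Log2 ratio of Cre over Flp for each gene in clones 4, 7 and 21 (coloured symbols), with the fitted fold change over the 3 clones as a tick and its standard error as a line. The symbols of most genes fall on both sides of 0, with the widest gaps for Fas (from -0.21 to 1.82), Bcl2 (-1.56 to -0.10) and Mdm4 (-0.66 to 0.66).

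The second comparison set the clones side by side, asking whether the ratio had the same direction in each. Only 4 of 33 members (12.1%) did so, against 27.7% of all genes tested. Eda2r, Mcl1 and Apaf1 were higher in Cre in every clone (9.09% of members against 14.6% of genes), and Bcl2 was lower in every clone (3.03% against 13.1%). In clone 4, 15 members (45.5%) were higher in Cre, against 49.9% of genes, and in clone 7, 18 members (54.5%) against 50.6%. In clone 21, 25 members (75.8%) were higher in Cre, against 50.2% of genes. Among the 18 targets, 16 (88.9%) were higher in Cre of clone 21, 9 in clone 7 and 7 in clone 4, and their median ratios were 0.24, 0.05 and -0.10. The count for clone 21 includes Perp, on a ratio of just 0.0019. With upper quartile scaling, 15 targets (83.3%) were higher in clone 21.

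A single combination of directions held the most members. Lower in Cre of clone 4 and higher in Cre of clones 7 and 21 were Trp53, Cdkn1a, Sesn1, Sesn2, Zmat3, Phlda3, Plk2, Gadd45a, Ddit4, Bbc3, Bak1 and Casp6, which is 12 of 33 members (36.4%) against 15.2% of genes. This group holds 8 of the 18 targets. Where each ratio had to exceed 0.1 in size, 8 members (24.2%) were left against 7.27% of genes, and Trp53, Cdkn1a, Bak1 and Casp6 dropped out. Gadd45a had ratios of -0.45, 0.76 and 0.28, Sesn2 of -0.21, 0.61 and 0.23, and Phlda3 of -0.22, 0.15 and 0.65.

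Mdm2, Ccng1, Trp53inp1, Aen, Rrm2b, Pmaip1 and Bid showed the other common combination, higher in Cre of clones 4 and 21 and lower in clone 7 (21.2% of members against 12.0% of genes). By the definition of the combinations, these genes differ in sign from Bbc3 and Gadd45a in clones 4 and 7. In clone 4, Mdm2 had a ratio of 0.52 and Ccng1 of 0.42, while Bbc3 had -0.63 and Gadd45a -0.45. In clone 7 the ratios were -0.08 and -0.19 for Mdm2 and Ccng1 and 0.52 and 0.76 for Bbc3 and Gadd45a. With each ratio above 0.1 in size, Ccng1, Trp53inp1 and Aen remained higher in Cre of clones 4 and 21 and lower in clone 7 (9.09% against 6.11%), and Mdm2 dropped out. Of the remaining members, Mdm4, Plk3, Ei24 and Casp9 were higher in Cre of clone 4 only (12.1% against 15.8%). Perp, Tigar and Fas were higher in Cre of clone 21 only (9.09% against 8.38%), Perp by a ratio of just 0.0019. Casp8 was lower in Cre of clone 21 only (3.03% against 7.45%). These combinations were noticed in these data and are given as counts without a test.

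Levels of cell cycle genes also varied between the cultures of each clone, although 0 of 15 had an unadjusted p under 0.05 for Cre against Flp in edgeR and none was called. The 15 genes of the cell cycle list were all lower in Cre of clone 4, higher in Cre of clone 7 and lower in Cre of clone 21, with median ratios of -0.41, 0.61 and -0.36. Their summed levels were 799 to 1160 CPM in Cre and 750 to 1115 CPM in Flp. Only Bax and Bcl2l1 among the members had this combination of directions (6.06% against 13.4% of genes). The part of cell cycle state and of library depth in the members' ratios was not tested.

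**Figure D3:**
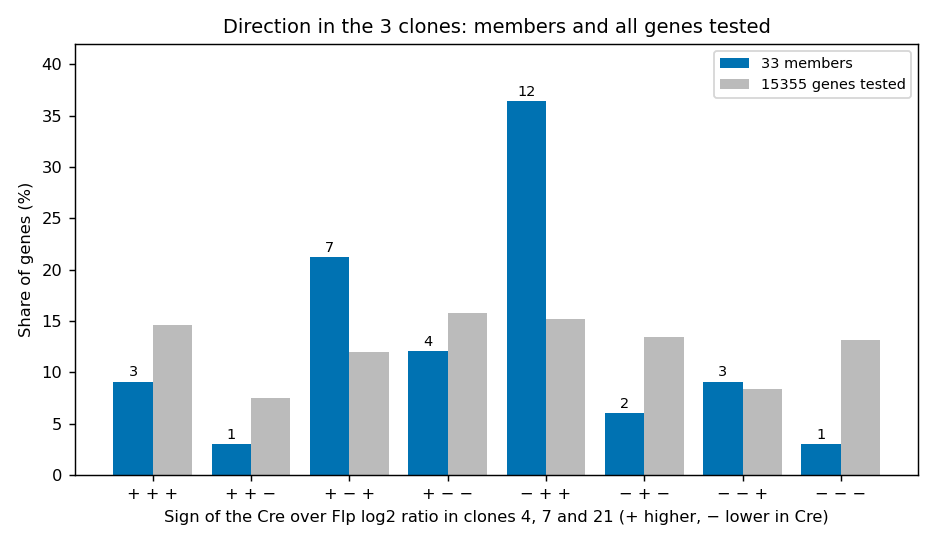
Share of the 33 genes (blue, with their number) and of the 15355 genes tested (grey) in each combination of directions of the Cre over Flp ratio in clones 4, 7 and 21. The highest blue bar, lower in clone 4 and higher in clones 7 and 21, holds 12 genes (36.4%) against 15.2% of all genes.

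The third comparison asked which members differed between the clones with the recombinase taken out. Here the Cre and Flp cultures of a clone served as its replicates. Each clone is a single cell line, so these p-values concern these clones only. No member passed an adjusted p of 0.05 in edgeR's test of the clone terms, where 1 of 15355 genes did (0.00651%). At an unadjusted p under 0.05 were 3 members (9.09%), against 8.0% of genes, a share near the background. DESeq2 called 0 members and 414 of 14164 genes (2.92%), and edgeR without the filter 0 members and 519 of 28286 genes (1.83%). The 3 members were Eda2r, Trp53inp1 and Apaf1, each highest in clone 21 and lowest in clone 4 when the cultures of a clone were averaged. The gap between these clones was 0.68 on the log2 scale for Eda2r, with an adjusted p of 0.4619 in edgeR, and 0.71 for Trp53inp1, with 0.5564. For Apaf1 the gap was 0.39 with an adjusted p of 0.6113 in edgeR. Over the alternative fits the adjusted p ran from 0.0713 to 0.9998 for Eda2r, from 0.0829 to 0.9998 for Trp53inp1 and from 0.4354 to 0.9998 for Apaf1. Trp53 itself showed a gap of 0.04 between its highest and lowest clone, and Mdm2 one of 0.36.

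**Figure D4:**
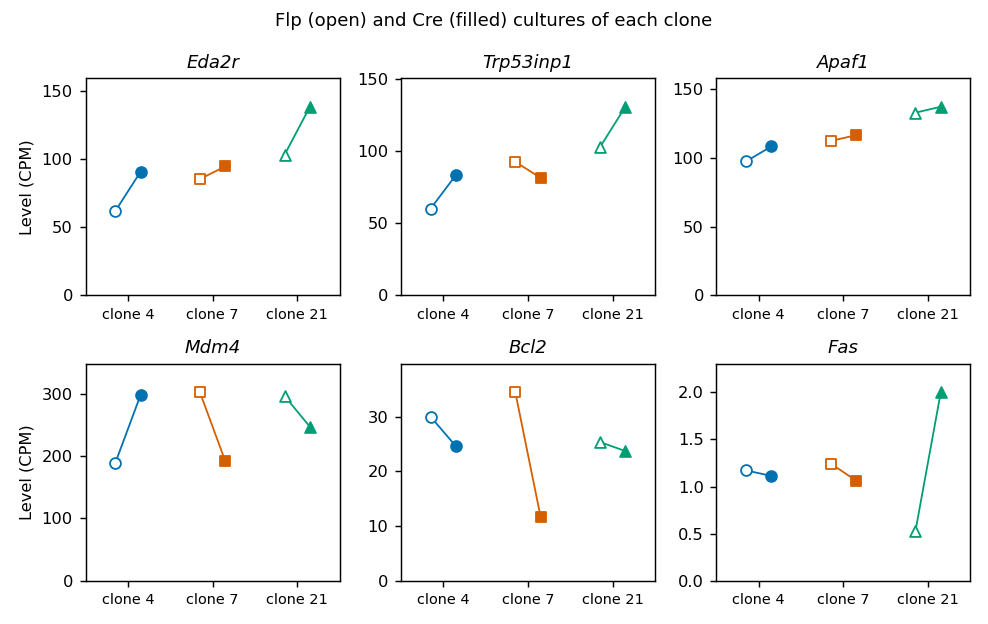
Level in CPM of Eda2r, Trp53inp1, Apaf1, Mdm4, Bcl2 and Fas in the Flp (open) and Cre (filled) culture of each clone, joined by a line. Eda2r, Trp53inp1 and Apaf1 are higher in clone 21 than in clone 4 in both cultures, while Mdm4 runs up in clone 4 and down in clones 7 and 21, Bcl2 drops most in clone 7 and Fas runs up in clone 21.

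Other genes of the pathway, in 4 lists chosen by function, showed 0 calls at an adjusted p of 0.05 in edgeR. Among modifiers of p53 and damage kinases, 18 of 19 were tested, 12 had positive and 6 negative fold changes, and 1 had an unadjusted p under 0.05. That gene was Sirt1, a deacetylase of p53, at 38.1, 48.8 and 63.8 CPM in Cre and at 26.1, 42.4 and 45.8 CPM in Flp. It was higher in Cre of every clone although the groups overlapped, with a fold change of 0.41 (SE 0.13) and an adjusted p of 0.6455 in edgeR. Pias1, a SUMO ligase, was at 36.9, 49.0 and 52.4 CPM in Cre and at 34.9, 37.5 and 41.7 CPM in Flp. It too was higher in Cre of every clone with overlapping groups, and its fold change was 0.27 (SE 0.13) with an adjusted p of 0.7819 in edgeR. Cdkn2a, which encodes the MDM2 inhibitor ARF and the kinase inhibitor p16, was the highest of its list per length at 50.3 CPM per kb, with 50.3, 65.8 and 77.1 CPM in Cre and 46.7, 73.5 and 40.5 CPM in Flp. Its fold change was 0.29 (SE 0.22).

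Of 24 further p53 targets, 23 were tested, with 16 positive and 7 negative fold changes and 0 at an unadjusted p under 0.05 in edgeR. Gdf15, a secreted stress cytokine, was the highest of them per length at 166 CPM per kb. It was at 325, 264 and 250 CPM in Cre and at 439, 294 and 273 CPM in Flp, and thus the lower in Cre of each clone. Gdf15 had a fold change of -0.24 (SE 0.11) with an adjusted p of 0.7843 in edgeR. Tnfrsf10b, a receptor for TRAIL, was at 24.0, 37.2 and 39.6 CPM in Cre and at 24.1, 27.9 and 20.5 CPM in Flp, with a fold change of 0.45 (SE 0.21) and an adjusted p of 0.7686 in edgeR. Its 43 expressed neighbours within 5 Mb on chromosome 14 had median ratios of 0.06, 0.92 and 0.65 in clones 4, 7 and 21, beside its own 0.00, 0.41 and 0.95.

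In the rest of the BCL2 family, 10 of 13 genes were tested, 5 in each direction, and 3 had an unadjusted p under 0.05 in edgeR, where 6.82% of all genes did. They were Hrk, Bcl2l2 and Bnip3l, the last named after its values were seen. Hrk, a BH3-only gene that is best known from neurons, was at 1.68, 12.0 and 5.41 CPM in Cre and at 0.848, 3.48 and 1.46 CPM in Flp. Cre was the higher culture in each clone, with ratios of 0.94, 1.77 and 1.85, while the groups overlapped. Hrk had a fold change of 1.58 (SE 0.31) with an adjusted p of 0.6065 in edgeR. DESeq2 with the block gave Hrk a fold change of 1.59 with an adjusted p of 0.007925, and edgeR without the filter gave an adjusted p of 0.02365. The authors' deposited table lists a log2 fold change of 0.89 with an adjusted p of 0.004232. The deposited fold changes may be scaled otherwise than those fitted here, and their sizes were not compared. Over all fits made here the adjusted p of Hrk ran from 0.007925 to 1.0. Its 105 expressed neighbours had medians of -0.08, 0.02 and 0.03.

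Bcl2l2, which encodes the pro-survival protein BCL-W, was at 41.9, 64.4 and 56.1 CPM in Cre and at 31.7, 40.3 and 36.6 CPM in Flp, and all Cre values lay above all Flp values. Its fold change was 0.56 (SE 0.12) with an adjusted p of 0.6065 in edgeR. DESeq2 gave Bcl2l2 an adjusted p of 0.04458, the lowest of the fits made here, which reached 1.0. For this gene the authors' deposited table lists a log2 fold change of 0.48 with an adjusted p of 0.0344 by its Wald test. The 87 expressed genes around it on chromosome 14 had median ratios of 0.04, 0.93 and 0.78, beside 0.40, 0.68 and 0.62 for Bcl2l2, and the part of its neighbourhood in this value was not tested. Bnip3l, a mitophagy receptor also on chromosome 14, had a fold change of 0.51 (SE 0.13) with an adjusted p of 0.6192 in edgeR. Its ratios were 0.32, 0.52 and 0.68, beside medians of 0.04, 0.93 and 0.63 for its 46 expressed neighbours, whose part was not tested either. Bok, a BAX relative and the highest of its list at 190 CPM per kb, was at 340 (clone 4), 313 (clone 7) and 270 CPM (clone 21) in Cre and at 584, 272 and 317 CPM in Flp. Flp clone 4 stood apart from the other 5 libraries.

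Of 26 other caspases, death receptors and inhibitors, 21 were tested, with 11 positive and 10 negative fold changes and 1 at an unadjusted p under 0.05. That gene was Casp14, a caspase of keratinising skin, at 0.615, 9.43 and 0.379 CPM in Cre and at 0, 0.273 and 0.3003 CPM in Flp. Cre clone 7 alone was above 1 CPM. edgeR gave an adjusted p of 0.6738 and DESeq2 one of 0.0411, within a range of 0.0277 to 0.980 over the fits. Aifm1, a mitochondrial oxidoreductase, was at 159, 142 and 136 CPM in Cre and at 189, 157 and 174 CPM in Flp. Its fold change was -0.25 (SE 0.10) with an adjusted p of 0.732 in edgeR. Tnfrsf1a, the main receptor for TNF, was the highest of its list at 43.7 CPM per kb, with 115, 123 and 112 CPM in Cre and 133, 99.7 and 96.4 CPM in Flp. The groups overlapped, with a fold change of 0.10 (SE 0.13).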

How the data were processed

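For each of the 6 libraries the authors deposited raw counts by Ensembl identifier, and for the series a comparison table with, per the file headers, a mean of normalized counts (a signal), a log2 fold change, a Wald score and p-values. The submitters' processing notes name STAR 2.5.2b-2, featureCounts 1.6.0.3, DESeq2 2.11.40.1, Trim Galore 0.4.3.0 and FastQC 0.67, and the builds mm10 and GRCm38. How strand was set, and which annotation was counted, is not given in the sources used here. Names and coordinates came from GENCODE M21, which holds 49412 of the 49671 identifiers.

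The whole count table was fitted with edgeR 4.0.16 in R 4.3.3 (filterByExpr, TMM, quasi-likelihood test with clone as a block, 2 residual degrees of freedom) and Benjamini-Hochberg adjustment over all genes tested, with a threshold of 0.05. DESeq2 1.42.0 was an alternative. Standard errors follow from the fold change and its F statistic, and a prior count of 2 enters each clone's ratio. The quasi-likelihood test adds prior degrees of freedom, estimated over all genes, to the 2 residual ones. Intervals use this total and a confidence level of 95%. The fit was tested on simulated data.

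The clone number pairs the libraries by design. As a check, the libraries' deviations from their group mean had same-clone correlations of 0.20 (clone 4), 0.11 (clone 7) and 0.30 (clone 21), against -0.27 to 0.02 for other pairs.

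Neighbours of a gene are those within 5 Mb at a mean of at least 5 CPM. Shared exons were counted from GENCODE, and 22 of 33 members shared none. Motifs were searched in RefSeq promoters of GRCm38 with the p53 response element in its usual degenerate form.

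The members and lists were chosen with earlier results of these data known. Values in every library were printed for Trp53, Mdm2 and Mdm4, for the members with the smallest p in each role and between clones, for the widest gaps between clones, and for the highest and lowest levels per length. In each other pathway list they were the 2 genes with the smallest p and the highest per length. The authors' deposited table was read as positive for higher in Cre, and 32 of 33 members had the same sign there. Plots used matplotlib 3.10.9.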

Additional observations from a re-analysis of the deposited data

Results flagged for a closer look

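Mdm4 and Bbc3 had ratios of at least 0.5 in size with opposite signs in different clones, and the difference between the clones was not tested, since each clone has 1 Cre and 1 Flp library. For Mdm4 the log2 ratio of Cre over Flp was 0.661 in clone 4 and -0.656 in clone 7. For Bbc3 it was -0.627 in clone 4, 0.522 in clone 7 and 0.557 in clone 21. Among expressed neighbours within 5 Mb the median ratios were smaller: those of the 64 neighbours of Mdm4 were -0.01 and -0.08 in clones 4 and 7, and those of the 71 neighbours of Bbc3 were -0.20, 0.11 and -0.01 in clones 4, 7 and 21.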

How the results depend on the processing

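The count of genes called between Cre and Flp was 0, and it was 195 with DESeq2 and 224 without a filter on low counts. Leaving out each clone gave 0 to 0 genes, and the fit with no replicate block gave 0. Between clones the count was 1, and it was 414 with DESeq2, 519 without a filter, 0 at a mean of at least 1 CPM and 0 to 4 when a clone was left out. No member was called in any of these fits: the smallest adjusted p was 0.269 for Cre against Flp (Bbc3 without clone 4) and 0.0713 between clones (Eda2r without a filter). The median fold change of the targets ranged from 0.08 to 0.24 when each clone was left out, and that of the BCL2 family and caspases from -0.034 to 0.066. With no replicate block these medians were 0.15 and -0.02. Of the 33 members, 14 kept their sign in every fit and 19 did not, 18 of them only when a clone was left out. Ddit4 also changed to 0.0020 without a filter. The leave-one-out fold changes ran from -0.052 to 0.087 for Trp53, -0.46 to 0.20 for Mdm4, -0.030 to 0.33 for Sesn1, -0.0037 to 0.19 for Zmat3, -0.034 to 0.40 for Phlda3, -0.046 to 0.18 for Plk3, -0.085 to 0.52 for Gadd45a and -0.24 to 0.39 for Ddit4. They ran from -0.15 to 0.10 for Rrm2b, -0.061 to 0.036 for Ei24, -0.15 to 0.90 for Fas, -0.12 to 0.10 for Bax, -0.055 to 0.54 for Bbc3, -0.18 to 0.20 for Pmaip1, -0.25 to 0.17 for Bak1 and -0.24 to 0.040 for Bcl2l1. For Casp6 the range was -0.17 to 0.083, for Casp8 -0.036 to 0.019 and for Casp9 -0.091 to 0.019. Each of these fits has fewer libraries, and the cause of the other changes was not tested. Of the 99 clone ratios, 99 moved by less than the SD between clones with a prior count of 0.5, and 95 did so when centred on the neighbours, where 5 changed sign. For the combinations of directions, the other scalings and the minimum ratio of 0.1 were added after seeing the data. DESeq2 size factors and upper quartile factors each left 12 members lower in clone 4 and higher in clones 7 and 21. Depth limits Fas, which rests on 14 to 95 reads per library.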

Other observations

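The p53 relative Trp63, chosen after its values were seen, was at 95.9, 74.1 and 99.7 CPM in Cre and at 88.8, 88.7 and 99.5 CPM in Flp of clones 4, 7 and 21, a mean of 10.9 CPM per kb. This gene encodes the p53 family member p63, known as a master regulator of stratified epithelia, and its level was similar in the clones apart from a lower Cre clone 7. Cpt1c, a brain-type relative of carnitine palmitoyltransferase and a listed p53 target, separated the clones more than any member did: it was at 0.568, 12.4 and 31.6 CPM in Cre and at 0.363, 13.3 and 19.8 CPM in Flp. Both cultures of clone 4 were below 1 CPM and both of clone 21 were the highest. edgeR's test between clones gave Cpt1c an adjusted p of 0.08145, and DESeq2 gave 1.19e-34, with a range up to 0.639 over the fits. Bcl2l10 had 0 reads in every library, which allows at most 0.0632 to 0.121 CPM.

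The sum of the BCL2 family genes outside the 33 members was 534 to 864 CPM in Flp and 581 to 648 CPM in Cre. The highest of these sums was in Flp clone 4, where Bok alone was at 584 CPM.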
